A study of Mus musculus with 4 samples.

Results

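The genes described here are the heat shock proteins and chaperones of C2C12, a line of mouse myoblasts able to fuse into myotubes in low serum. They were chosen by symbol: the small and large heat shock protein genes, the J proteins (Dnaj), the BAG proteins, the subunits of the cytosolic chaperonin TRiC, and Cryab, Unc45a, Unc45b, Smyd1, St13 and Stip1. The symbols matched 88 of the 13824 listed genes, and 82 of the 88 averaged at least 1 FPKM over the libraries and were among the 11825 genes tested. FPKM is a fragment count scaled to transcript length in kilobases and to the mapped total of the library. By role, 10 of the 88 were small heat shock proteins or myosin chaperones of muscle, and 50 were general cytosolic or nuclear chaperones and co-chaperones. Another 14 belonged to the endoplasmic reticulum (ER), 10 to mitochondria, and 4 were placed outside these roles. These 4 were Hspg2 (perlecan, a basement membrane proteoglycan), Hspb11 (an intraflagellar transport protein), Hspbap1 and Dnajc22.

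RNA-seq libraries were made from 2 samples of cells given an siRNA against Mef2a (siMEF2A) and 2 samples given a scrambled siRNA. Each siRNA was used at 30 nM with Lipofectamine, and differentiation medium, which holds horse serum, was then given to all cells for 48 h. The study set out to find genes that respond to loss of MEF2A, a MADS box transcription factor of muscle, in differentiating myoblasts. No label says that the samples of a group were separate cultures, so the p-values reflect library-to-library spread that may be technical only. In the limma fit that spread is mostly pooled over genes (29.3 prior degrees of freedom, against 2 from a gene's own libraries). An SE is therefore not the spread of that gene's own libraries.

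Chaperones bind unfolded proteins and keep them from aggregating or help them fold. HSP70 proteins work in cycles set by J proteins, which deliver clients, and by BAG proteins and other exchange factors, while HSP90, TRiC, the ER chaperones and the mitochondrial chaperonin act on their own sets of clients. Muscle adds small heat shock proteins that protect the contractile apparatus without using ATP, and myosin chaperones that help fold the motor head of myosin.

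Mef2a itself had 12.7 and 14.3 FPKM in the siMEF2A libraries, against 25.9 and 32.2 FPKM in the scrambled libraries, which left 46.5% of the scrambled mean (limma adjusted p = 3.17e-05). The labelled cell type was checked against myogenic genes. Myod1, Myog, Des, Myh3 and Ckm were listed, but Acta1, the skeletal muscle actin, was not, so an unlisted symbol cannot be read as unexpressed. Of the myogenic genes tested besides Mef2a, 8 of 9 fell at a limma adjusted p under 0.05, where 1.32% of all genes tested did. The median log2 fold change of the 9 was -1.14. This list was made with earlier results of these data known, so its count describes the genes chosen. Myog, the transcription factor that drives terminal differentiation, had 80.5 and 86.2 FPKM with siMEF2A, against 126 and 138 FPKM with the scrambled siRNA. Of 15 markers of leukocytes, endothelium, epithelium and adipocytes, 3 were listed (Cd14, Cd68 and Fabp4), and their summed level was 19.8 and 19.7 FPKM with siMEF2A, against 17.7 and 19.3 FPKM with scrambled siRNA. Most of that sum was Cd14, at 115% of its scrambled mean, while Fabp4, an adipocyte marker, had 0.768 and 1.18 FPKM with siMEF2A, against 2.30 and 1.54 FPKM with scrambled siRNA (limma adjusted p = 0.0617). In RNA from whole cultures, fewer differentiated cells and less RNA per cell cannot be told apart.

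Among the 82 chaperone genes tested, 3 fell and none rose at an adjusted p under 0.05 (limma on log2(FPKM + 1), two-sided, adjusted over all 11825 genes). The 3 were Smyd1, Hspb2 and Unc45b. Each was placed by role with the small heat shock proteins or the myosin chaperones of muscle, although Smyd1 itself encodes a lysine methyltransferase. Over all genes tested, 1.32% fell and 0.406% rose. Without siMEF2A replicate 2 the count of chaperone genes that fell was 1, Smyd1. At an unadjusted p under 0.05 there were 6 chaperone genes, all lower with siMEF2A: the other 3 were Unc45a, Cryab and Dnajc15. This was 7.32% of the 82, against 6.39% of all genes tested. The median log2 fold change of the 82 genes was 0.05, against 0.04 over all genes tested. The groups did not overlap for 14 chaperone genes with siMEF2A higher and for 9 with siMEF2A lower, where 18.8% and 9.13% of all genes tested were so.

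The small heat shock and muscle chaperones lay on the lower side: all 7 tested had a negative log2 fold change, 3 of them called. Their median, -0.34, was the value of Cryab, which was not called. The 5 small heat shock proteins alone had a median of -0.21, and the 2 genes placed as myosin chaperones one of -0.74. The values of Hspb1 and Hspb6 were near 0 and changed sign when single libraries were left out. The 47 general chaperones had a median of 0.05, with 34 positive and 13 negative values and no call (1 unadjusted limma p under 0.05). The 14 ER chaperones had a median of 0.14, with 13 positive values and no call (0 unadjusted). The 10 mitochondrial genes had a median of 0.02, with 6 positive values and no call (1 unadjusted). Since the genes were chosen with earlier results known, these medians describe the groups and carry no test. Of all genes tested, 63.9% had a positive log2 fold change. With median-ratio scaling the median was 0.0023 for the general and -0.029 for the mitochondrial chaperones, so their signs depend on the scaling.

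**Figure D1:**
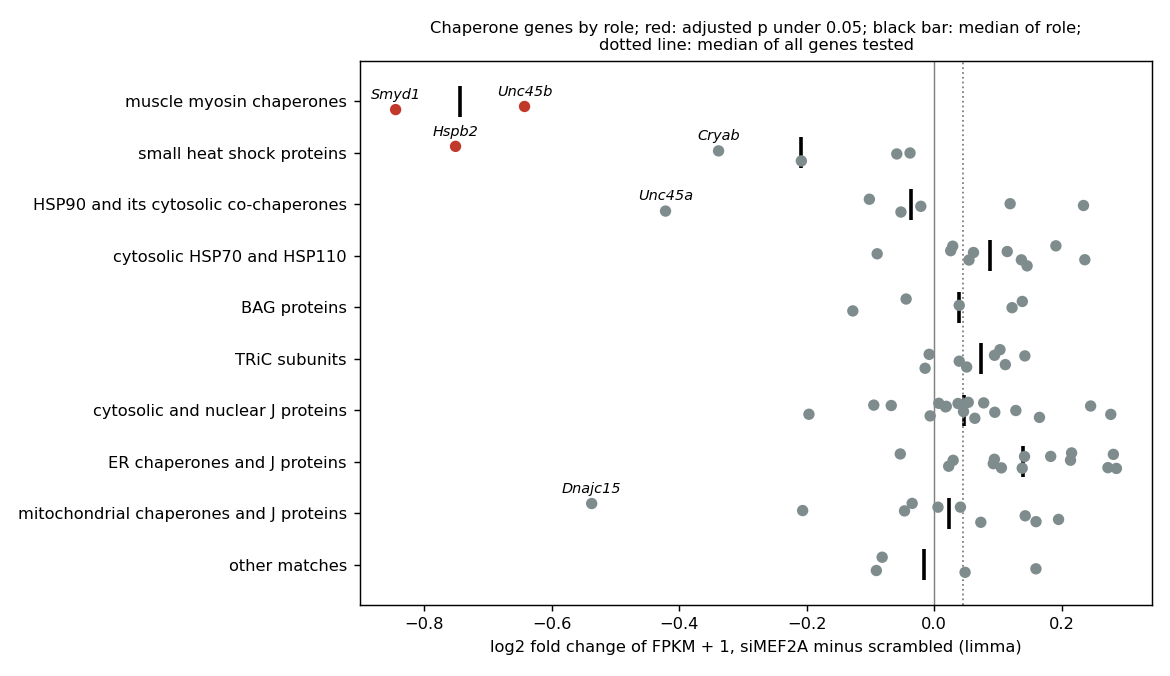
Log2 fold change on the log2(FPKM + 1) scale, siMEF2A minus scrambled, for each of the 82 chaperone genes tested, one row per role. Each point is a gene and the called genes are marked; the 3 called genes lie at -0.85, -0.75 and -0.64, within the rows of myosin chaperones and small heat shock proteins.

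Smyd1 encodes a lysine methyltransferase of heart and skeletal muscle that, in zebrafish, acts with Unc45b and HSP90 in myosin assembly. Its listed transcripts lie at chr6:71213940-71262281 on the minus strand (mm10). Smyd1 had 2.25 and 2.27 FPKM with siMEF2A, against 4.60 and 5.13 FPKM with scrambled siRNA. Both siMEF2A libraries lay at about the same level and under both scrambled libraries. The siMEF2A mean was 46.5% of the scrambled mean. The log2 fold change is that of FPKM + 1, which understates the change of low genes. It was -0.85 with an SE of 0.15 (limma adjusted p = 0.000368). Smyd1 stayed called under each of the other 13 settings in which it was tested. The files list 2 coding transcripts of Smyd1. Smyd1-201 had 0.859 and 1.51 FPKM with siMEF2A, against 3.02 and 3.0 FPKM with scrambled siRNA. Smyd1-202 had 1.39 and 0.753 FPKM with siMEF2A, against 1.58 and 2.12 FPKM with scrambled siRNA. Both transcripts were lower in both siMEF2A libraries, but which of them was the larger differed between the siMEF2A libraries, so the gene's sum was steadier than its split.

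Unc45b, the striated muscle form of the UNC-45 myosin chaperone, is an HSP90 co-chaperone for the myosin head. Its listed transcripts lie at chr11:82911253-82943403 on the plus strand (mm10). Unc45b had 2.30 and 2.09 FPKM with siMEF2A, against 3.57 and 4.44 FPKM with scrambled siRNA. The groups did not overlap, and the siMEF2A mean was 54.8% of the scrambled mean, with a log2 fold change of -0.64 (SE 0.15, limma adjusted p = 0.0132). This call depended on replicate 2 of each group. It was lost without scrambled replicate 2 and without siMEF2A replicate 2, at log2 fold changes of -0.52 and -0.60. It was kept when replicate 1 of either group was left out. The coding transcript Unc45b-201 had 1.74 and 1.68 FPKM with siMEF2A, against 3.19 and 4.04 FPKM with scrambled siRNA, or 47.3% of the scrambled mean. The short transcript Unc45b-204, which is annotated as noncoding, had 0.561 and 0.410 FPKM with siMEF2A, against 0.379 and 0.407 FPKM with scrambled siRNA. Of the 3 annotated coding transcripts of Unc45b, the listed one is not the longest, so these values cover only part of the gene's transcripts.

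Unc45a is the general form of the same chaperone, found outside muscle as well. It had 2.47 and 2.68 FPKM with siMEF2A, against 3.71 and 3.86 FPKM with scrambled siRNA. Here too the groups did not overlap, and the siMEF2A mean was 68.0% of the scrambled mean, but the change did not pass the threshold (log2 fold change -0.42, SE 0.15, limma adjusted p = 0.236). Whether Unc45b changed more than Unc45a was not tested.

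Hspb2 encodes a small heat shock protein of muscle that binds the myotonic dystrophy kinase. It had 24.7 and 21.5 FPKM with siMEF2A, against 42.1 and 37.1 FPKM with scrambled siRNA. All siMEF2A values lay under all scrambled values, at 58.4% of the scrambled mean, with a log2 fold change of -0.75 (SE 0.15, limma adjusted p = 0.00313). Without siMEF2A replicate 2 the log2 fold change was -0.65 and the adjusted p was 0.143. Cryab (alpha B-crystallin, which protects desmin filaments and titin) is the neighbour of Hspb2 on chromosome 9, in the opposite direction: Hspb2 is listed at chr9:50751072-50752354 on the minus strand and Cryab at chr9:50752758-50756633 on the plus strand. Cryab had 93.8 and 96.8 FPKM with siMEF2A, against 116 and 125 FPKM with scrambled siRNA. These groups did not overlap either, but the difference, 78.9% of the scrambled mean and -0.34 in log2, did not pass the threshold (limma adjusted p = 0.773). The ratio of Hspb2 to Cryab FPKM was 0.264 and 0.222 with siMEF2A, against 0.362 and 0.296 with scrambled siRNA. Both siMEF2A ratios were under both scrambled ratios. Of the 5 annotated coding transcripts of Cryab, 1 is listed, and it is not the longest. The Cryab values and this ratio therefore cover only part of that gene's transcripts. Exons of Hspb2 overlap annotated but unlisted Cryab transcripts on the opposite strand, and since the use of strand in the counting is not stated, reads of the pair may not be fully separated.

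The other small heat shock proteins tested were Hspb8, Hspb1 and Hspb6. Hspb8, the partner of Bag3 in chaperone-assisted autophagy, had 46.2 and 42.6 FPKM with siMEF2A, against 48.6 and 54.4 FPKM with scrambled siRNA (log2 fold change -0.21, no call). Hspb1, the mouse Hsp25 that binds actin, had 76.4 and 77.4 FPKM with siMEF2A, against 72.3 and 88.8 FPKM with scrambled siRNA. Hspb6 (Hsp20) had 5.37 and 6.31 FPKM with siMEF2A, against 5.67 and 6.36 FPKM with scrambled siRNA. The groups overlapped for Hspb1 and Hspb6, at 95.5% and 97.1% of the scrambled mean, and did not overlap for Hspb8.

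**Figure D2:**
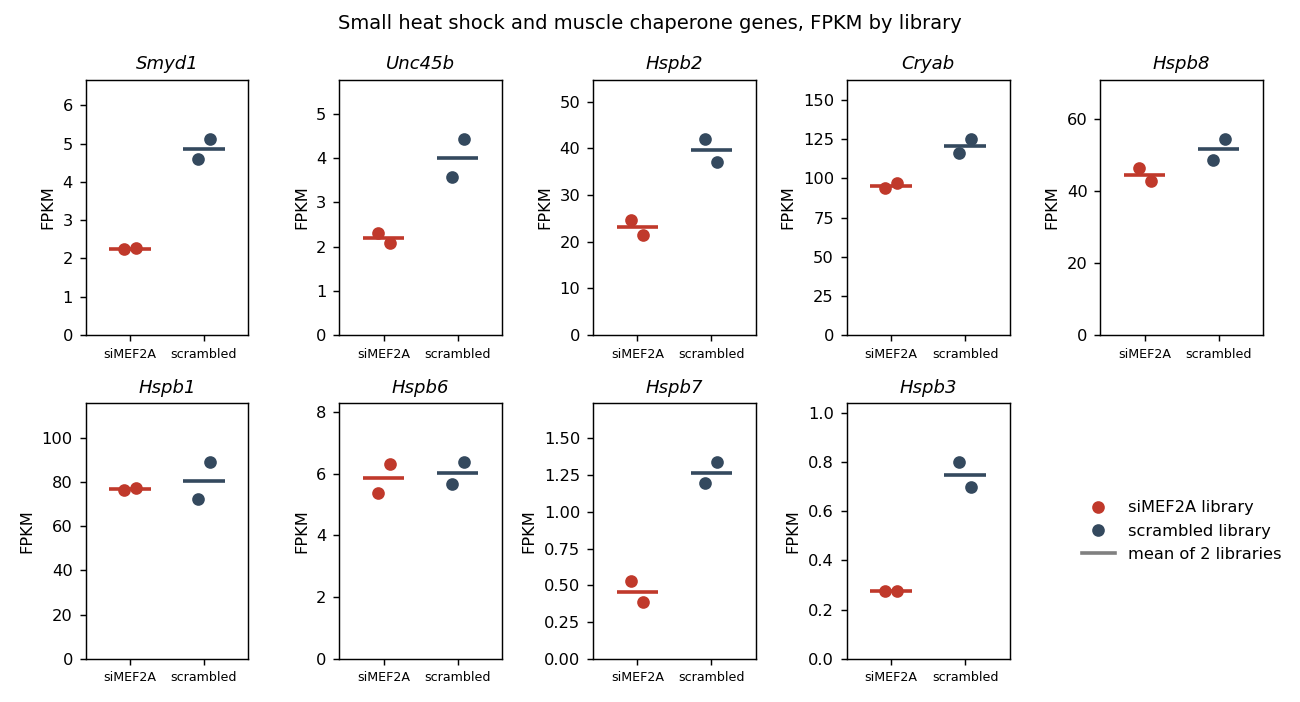
FPKM of 9 small heat shock and muscle chaperone genes in each library, with siMEF2A on the left and scrambled on the right of every panel. Points are single libraries and bars are means of 2. Smyd1, Unc45b, Hspb2, Cryab, Hspb8, Hspb7 and Hspb3 have all siMEF2A points under all scrambled points, whereas the points of Hspb1 and Hspb6 overlap.

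The level filter left out 6 of the 88 genes. Hspb7, a small heat shock protein of heart and skeletal muscle, had 0.526 and 0.386 FPKM with siMEF2A, against 1.20 and 1.34 FPKM with scrambled siRNA. Hspb3, another muscle form, had 0.274 and 0.275 FPKM with siMEF2A, against 0.798 and 0.699 FPKM with scrambled siRNA. The siMEF2A means were 36.1% of the scrambled mean for Hspb7 and 36.7% for Hspb3, and neither gene overlapped between the groups. With no level filter, the log2 fold change of FPKM + 1 was -0.64 for Hspb7 (limma adjusted p = 0.00922). For Hspb3 it was -0.46 (limma adjusted p = 0.0544), and 1.15% of the 13797 genes tested fell in that fit. Bag1, an HSP70 exchange factor, had 0.593 and 0.594 FPKM with siMEF2A, against 1.00 and 1.43 FPKM with scrambled siRNA. Its longest coding transcript is not among the listed ones, so its level here is that of 1 listed transcript. Hspb9, a testis form, was listed at 2.13e-05 and 2.18e-05 FPKM with siMEF2A, against 0.219 and 0.244 FPKM with scrambled siRNA, too little to give a fold. Hspa1l and Cct6b, both best known from testis, averaged 0.548 and 0.223 FPKM over the 4 libraries. Just inside the filter lay Hspa12b with a mean of 1.06 FPKM, and just outside lay Bag1 with 0.905 and Hspb7 with 0.861 FPKM.

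Promoter sequences are shown for Smyd1, Hspb7, Hspb3 and Hspb8, which were lower with siMEF2A without overlap and whose window in the RefSeq promoter table holds no annotated exon of the gene, and for Hspb1, which overlapped between the groups. Each run is the 250 bases before the RefSeq start on the gene's own strand (GRCm38.p6), 5′ to 3′. Windows were searched on both strands for the MEF2 consensus, for the E-box CANNTG bound by myogenic factors, and for a pair of heat shock units (GAA, 2 unspecified bases, TTC). Capitals mark MEF2 and E-box matches in Smyd1, Hspb7, Hspb3 and Hspb8, and pairs of heat shock units in Hspb1. Smyd1 lies at chr6:71262282-71262531 (minus strand), Hspb7 at chr4:141420529-141420778 (plus), Hspb3 at chr13:113663677-113663926 (minus), Hspb8 at chr5:116422865-116423114 (minus) and Hspb1 at chr5:135887669-135887918 (plus).
Smyd1: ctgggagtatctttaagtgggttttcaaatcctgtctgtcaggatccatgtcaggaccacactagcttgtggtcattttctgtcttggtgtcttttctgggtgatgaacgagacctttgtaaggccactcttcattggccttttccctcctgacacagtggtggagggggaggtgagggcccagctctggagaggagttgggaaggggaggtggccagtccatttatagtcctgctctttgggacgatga
Hspb7: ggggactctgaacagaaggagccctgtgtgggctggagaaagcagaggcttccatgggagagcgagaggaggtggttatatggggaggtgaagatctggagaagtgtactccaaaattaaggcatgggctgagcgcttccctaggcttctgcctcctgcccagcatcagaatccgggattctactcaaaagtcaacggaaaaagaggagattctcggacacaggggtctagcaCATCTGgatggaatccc
Hspb3: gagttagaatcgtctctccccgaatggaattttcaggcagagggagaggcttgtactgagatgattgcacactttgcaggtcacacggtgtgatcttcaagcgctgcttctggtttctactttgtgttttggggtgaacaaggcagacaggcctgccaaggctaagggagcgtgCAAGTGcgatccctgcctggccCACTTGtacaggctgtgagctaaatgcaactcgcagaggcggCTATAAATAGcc
Hspb8: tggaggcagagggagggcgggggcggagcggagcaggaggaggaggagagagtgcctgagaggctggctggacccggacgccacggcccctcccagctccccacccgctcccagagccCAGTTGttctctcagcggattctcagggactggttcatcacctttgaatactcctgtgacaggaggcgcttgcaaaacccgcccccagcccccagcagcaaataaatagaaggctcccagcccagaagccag
Hspb1: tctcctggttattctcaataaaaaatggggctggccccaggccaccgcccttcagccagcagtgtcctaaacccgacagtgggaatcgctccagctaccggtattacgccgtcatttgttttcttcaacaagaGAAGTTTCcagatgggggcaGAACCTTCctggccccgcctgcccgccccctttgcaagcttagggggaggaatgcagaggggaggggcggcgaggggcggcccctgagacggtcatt
The Smyd1 window, which ends at the start of the listed transcript Smyd1-201, held no MEF2 or E-box match. An unlisted Smyd1 transcript starts farther upstream, outside the window. The Hspb7 window held 1 E-box, at -17 from the start. The Hspb3 window held a MEF2 match at -12, which also contains the letters of a TATA box, and E-boxes at -76 and -54. It also has a pair of heat shock units at -224, left in lower case. The Hspb1 window held pairs of heat shock units at -117 and -97, and also E-boxes at -138 and -109, left in lower case. The Hspb8 window held 1 E-box, at -132. The window of Unc45b (chr11:82911003-82911252, plus strand) held E-boxes at -108 and -43 and no MEF2 match, and is not printed because an exon of an unlisted Unc45b transcript lies in it. A match is a description of letters and not a bound site, and a window without one says only that these letters are absent from it.

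Of the 88 genes, 71 had a promoter window. A pair of heat shock units was found in 11 of them (15.5%), against 7.73% of the 27025 genes in the table. The stricter triplet, which is the pair followed by 2 more unspecified bases and GAA, was found in 3 of the 71 (4.23%, Dnajb6, Hspd1 and Hspe1), against 0.514% of all genes. The windows of Hspd1 and Hspe1 overlap on opposite strands, and their pair and triplet matches are the same bases. In both counts these genes are therefore not separate sites. The ER stress element (CCAAT, 9 unspecified bases, CCACG) was also found in 3 (4.23%, Hspa5, Hsp90b1 and Dnajc3), against 0.13% of all genes. The MEF2 consensus was found in 1 (1.41%, Hspb3), against 3.42% of all genes, and an E-box in 40 (56.3%), against 69.3%. None of the 6 genes with a triplet or an ER stress element was called. Hspb2 and Cryab are among the 17 genes that were not matched to a window.

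Among HSP90 and its cytosolic partners, none of 6 genes was called, and the median log2 fold change was -0.04. Hsp90ab1, the constitutive form, had 669 and 716 FPKM with siMEF2A, against 565 and 718 FPKM with scrambled siRNA. Hsp90aa1, the inducible form, had 92.4 and 112 FPKM with siMEF2A, against 88.5 and 134 FPKM with scrambled siRNA. St13, the HSP70-interacting protein Hip, had 216 and 221 FPKM with siMEF2A, against 161 and 215 FPKM with scrambled siRNA. St13 had the largest positive log2 fold change of these 6, at 0.23, and its value in scrambled replicate 2 was close to those of the siMEF2A libraries. Stip1 (Hop), which links HSP70 to HSP90, overlapped between the groups at 97.7% of the scrambled mean.

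The cytosolic HSP70 and HSP110 genes numbered 10 tested, with 9 positive log2 fold changes, a median of 0.09 and no call. Hspa8 (Hsc70), the constitutive HSP70, was the most abundant chaperone gene and ranked 118 of all genes by mean FPKM. It had 917 and 856 FPKM with siMEF2A, against 829 and 910 FPKM with scrambled siRNA. Hspa4, an HSP110-type exchange factor, had 59.1 and 69.3 FPKM with siMEF2A, against 49.5 and 67.5 FPKM with scrambled siRNA. The stress-inducible Hspa1b had 8.75 and 9.97 FPKM with siMEF2A, against 6.75 and 8.95 FPKM with scrambled siRNA. Its log2 fold change of 0.24 was the largest of the 10 and was not called. Hspa1b has a near-identical copy, Hspa1a, which is not among the listed symbols, so its value is uncertain. At the other end, Hspa12a had 1.94 and 2.80 FPKM with siMEF2A, against 2.28 and 2.85 FPKM with scrambled siRNA.

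The 5 BAG proteins tested had log2 fold changes of -0.13 to 0.14 and no call. Bag3, which works with Hspb8 in clearing damaged filamin from the Z-disc, had 24.5 and 31.4 FPKM with siMEF2A, against 23.9 and 30.4 FPKM with scrambled siRNA. In both groups replicate 2 was the higher, and the groups overlapped. Bag6, which guards membrane proteins before insertion, had 76.8 and 89.4 FPKM with siMEF2A, against 81.4 and 89.8 FPKM with scrambled siRNA. Bag2, an inhibitor of the ubiquitin ligase CHIP, had 19.1 and 18 FPKM with siMEF2A, against 19.7 and 21.1 FPKM with scrambled siRNA. Its groups did not overlap, at 91.1% of the scrambled mean, without a call. Bag5 was at 110% of its scrambled mean and overlapped between the groups.

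TRiC folds actin and tubulin as a ring of different subunits. The 8 subunits tested lay between 77.0 and 209 FPKM on average over the 4 libraries, had log2 fold changes of -0.01 to 0.14 and no call, and overlapped between the groups in every case. Tcp1, the founding subunit, had 212 and 203 FPKM with siMEF2A, against 209 and 210 FPKM with scrambled siRNA. Cct4 had 209 and 175 FPKM with siMEF2A, against 196 and 189 FPKM with scrambled siRNA. Cct8 had the largest value of the 8, with 143 and 141 FPKM with siMEF2A, against 113 and 146 FPKM with scrambled siRNA.

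The 18 cytosolic and nuclear J proteins had a median log2 fold change of 0.05, with 14 positive values and no call. Dnajb6, whose mutation causes a limb girdle muscular dystrophy in people, had 143 and 136 FPKM with siMEF2A, against 128 and 139 FPKM with scrambled siRNA. Dnaja1, a farnesylated partner of Hspa8, had 127 and 130 FPKM with siMEF2A, against 92.5 and 126 FPKM with scrambled siRNA. Dnajb4 had 18.1 and 20.6 FPKM with siMEF2A, against 14.7 and 17.0 FPKM with scrambled siRNA. Dnajb4 was the highest of the 18 by log2 fold change, at 0.28, and its groups did not overlap, without a call (limma adjusted p = 0.958). Dnajb5 was the lowest, at -0.20, with 1.25 and 1.26 FPKM with siMEF2A, against 1.68 and 1.5 FPKM with scrambled siRNA.

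In the ER, 13 of 14 genes had a positive log2 fold change and none was called. Hspa5 (BiP), the HSP70 of the ER, had 218 and 239 FPKM with siMEF2A, against 172 and 235 FPKM with scrambled siRNA. Hsp90b1 (Grp94), the HSP90 of the ER, had 162 and 189 FPKM with siMEF2A, against 118 and 176 FPKM with scrambled siRNA. Dnajc1, a J protein of the ER membrane, had 9.51 and 11.6 FPKM with siMEF2A, against 6.67 and 10.7 FPKM with scrambled siRNA. In each of these 3 genes scrambled replicate 2 lay within the range of the siMEF2A values and scrambled replicate 1 lay under it, so the groups overlapped. Dnajc10 (ERdj5), a disulfide reductase, did not overlap, with 53.9 and 52.5 FPKM with siMEF2A, against 38.5 and 50.0 FPKM with scrambled siRNA. The single negative value was that of Dnajc16, at -0.05.

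The positive median of the ER genes depended on which libraries were set against each other. It was -0.011 without scrambled replicate 1 and 0.29 without scrambled replicate 2. The median log2 difference over the 14 genes was 0.22 and 0.34 for siMEF2A replicates 1 and 2 minus scrambled replicate 1, and -0.11 and 0.06 for the same libraries minus scrambled replicate 2. Between replicates, the median was 0.11 for siMEF2A replicate 2 minus 1 and 0.28 for scrambled replicate 2 minus 1. The difference between the scrambled libraries was thus larger than the median log2 fold change of 0.14. For the general chaperones, the 4 medians between single libraries of the groups lay between -0.02 and 0.16, and that between the scrambled libraries was 0.21. For the small heat shock and muscle chaperones, all 4 medians were negative, between -0.42 and -0.26, against 0.01 between the siMEF2A libraries and 0.14 between the scrambled libraries. Over these 7 genes a median is the value of the middle gene. That gene was Cryab, which was not called, in all 4 pairs between groups. Within the groups it was Smyd1 for siMEF2A and Hspb6 for scrambled, so these medians do not compare the same genes.

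**Figure D3:**
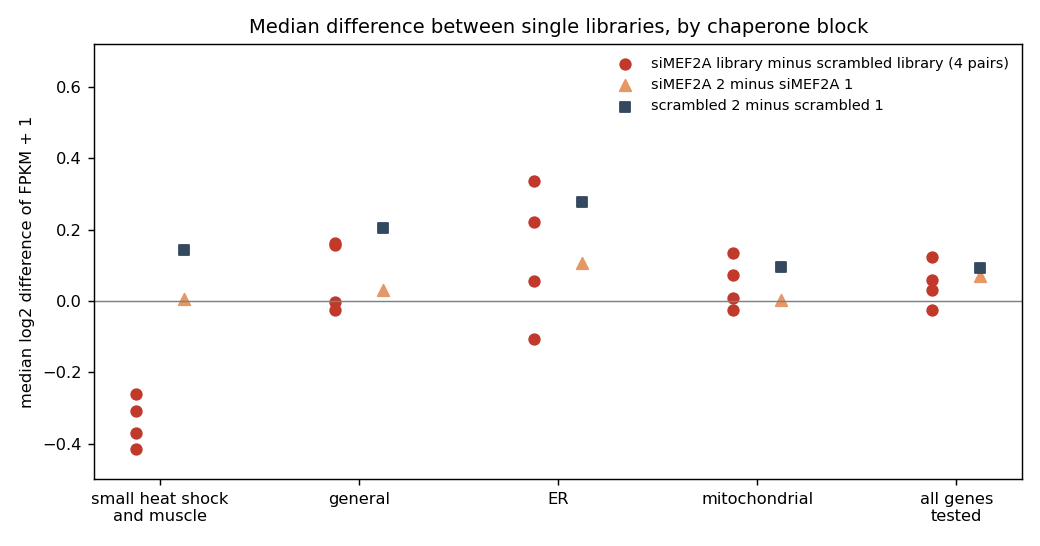
Median log2 difference over the tested genes of each chaperone group and over all genes tested, for each of the 4 pairs of an siMEF2A library minus a scrambled library and for the 2 pairs within a group. The small heat shock and muscle group lies between -0.42 and -0.26 in all 4 pairs between groups, whereas the ER group spans -0.11 to 0.34. In these 4 pairs the median of the small heat shock and muscle group is the value of Cryab, which was not called.

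The mitochondrial genes gave no call among 10. Hspe1 (Hsp10), the lid of the mitochondrial chaperonin, had 652 and 472 FPKM with siMEF2A, against 749 and 547 FPKM with scrambled siRNA. Hspd1 (Hsp60), the chaperonin barrel, had 84.3 and 97.7 FPKM with siMEF2A, against 68.8 and 98.0 FPKM with scrambled siRNA. Dnajc15, a J protein of the inner membrane import motor, had 304 and 219 FPKM with siMEF2A, against 455 and 309 FPKM with scrambled siRNA. The groups of Dnajc15 did not overlap and the siMEF2A mean was 68.4% of the scrambled mean, but its log2 fold change of -0.54 (SE 0.21) was not called (limma adjusted p = 0.411). Its only listed transcript, of 674 bases, is annotated as a target of nonsense-mediated decay, and the longest coding transcript is not listed. Dnajc28 had the largest positive log2 fold change of the 10, at 0.20. Hspa9 (mortalin), the mitochondrial HSP70, had 116 and 130 FPKM with siMEF2A, against 105 and 142 FPKM with scrambled siRNA.

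Short genes were, by their median, lower in replicate 2 of both groups, as numbered by the sample titles. No label says that these numbers pair the libraries, and the column headers number the scrambled libraries otherwise. A direction shared by the groups therefore rests on that choice. In each group the FPKM of Dnajc15 and of Hspe1 was lower in replicate 2. The ratio of Hspe1 to Hspd1 FPKM was 7.73 and 4.83 with siMEF2A, against 10.9 and 5.58 with scrambled siRNA, and the spread within each group was wider than the gap between the group means. Over the 9 tested genes with transcripts under 1000 bases, the median log2 difference of replicate 2 minus 1 was -0.19 with siMEF2A and -0.23 with scrambled siRNA. Over the other 73 genes it was 0.04 with siMEF2A and 0.21 with scrambled siRNA. As a description across the 82 genes, which share the libraries and are not independent, Spearman's rho of transcript length with the replicate difference was 0.519 with siMEF2A and 0.358 with scrambled siRNA. With the log2 fold change, rho was 0.346. Hspb2, Cryab and Hspb1 are among these 9 short genes, and Smyd1 and Unc45b are not. Of these short genes, Hspb2 was lower in replicate 2 of both groups, while Cryab and Hspb1 were higher. The part of length in the results was not tested.

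**Figure D4:**
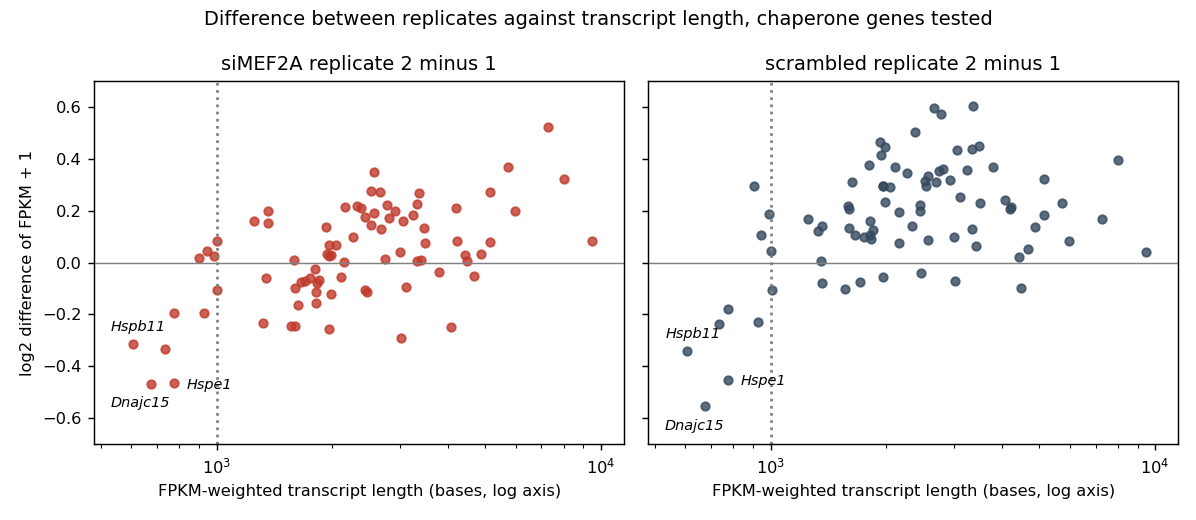
Log2 difference between replicates 2 and 1 against transcript length in bases (log axis, weighted by FPKM), for the 82 chaperone genes tested, in siMEF2A (left) and scrambled (right) libraries. The dotted line marks 1000 bases. Dnajc15, Hspe1 and Hspb11 lie under 0 in both panels. Replicates are numbered by the sample titles, and no label says that the numbers pair the libraries.

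Levels spanned about 3 orders of magnitude. By mean FPKM, Hspa8, Hsp90ab1 and Hspe1 were the highest of the 82 genes, with means of 887 ± 42.8, 692 ± 33.3 and 562 ± 127 FPKM with siMEF2A, against 869 ± 57.0, 641 ± 108 and 648 ± 143 FPKM with scrambled siRNA (SD, n = 2 each). Hspa8 was the highest of the 3 in every library, whereas the order of Hsp90ab1 and Hspe1 differed between libraries. The called genes came from lower in the order: the siMEF2A mean was 23.1 ± 2.28 FPKM for Hspb2, 2.26 ± 0.00971 FPKM for Smyd1 and 2.20 ± 0.149 FPKM for Unc45b, against scrambled means of 39.6 ± 3.52, 4.86 ± 0.375 and 4.01 ± 0.615 FPKM (SD, n = 2 each).

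**Figure D5:**
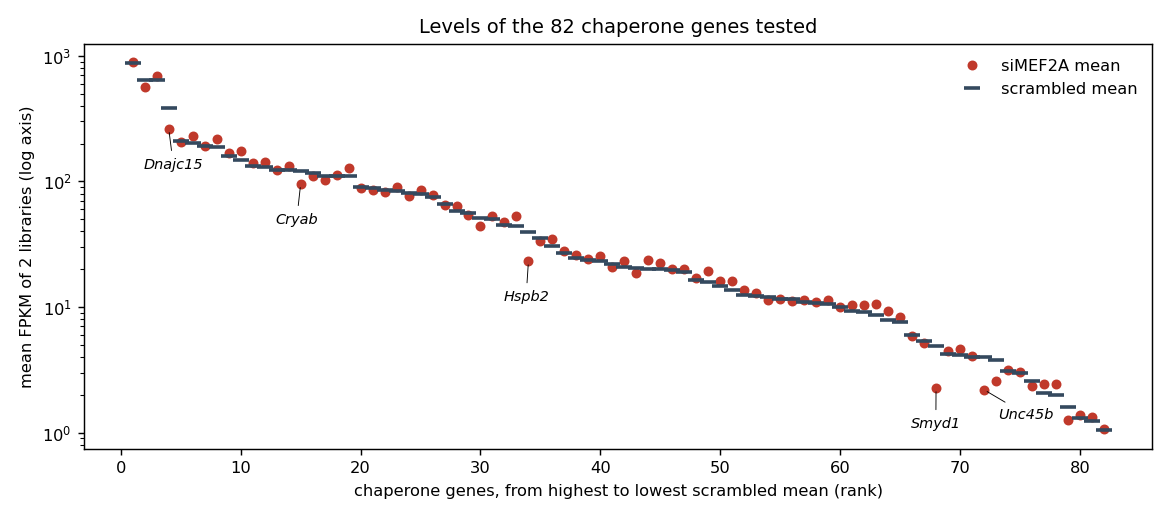
Mean FPKM (log axis) of the 82 chaperone genes tested, ordered from the highest to the lowest scrambled mean; circles are siMEF2A means and dashes are scrambled means of 2 libraries. Hspb2, Smyd1 and Unc45b lie visibly under their scrambled dashes, and most other circles lie near theirs.

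Partners of these genes outside the symbol rule were read from lists made with earlier results known. Of 20 heat shock factors and HSP90 partners tested, none rose or fell (limma, 0 at an unadjusted p under 0.05), with a median log2 fold change of 0.05. Hsf1, the main heat shock factor, had 28.7 and 33.0 FPKM with siMEF2A, against 32.9 and 35.1 FPKM with scrambled siRNA. Hsf4 had the smallest p of the 20 and a log2 fold change of -0.22. None of 8 prefoldin and TRiC partners was called (0 unadjusted), with Pfdn4 first by p at -0.22. None of 28 ER folding and unfolded protein response genes was called (1 unadjusted), with a median of 0.12. Trib3, a pseudokinase induced by ER stress, had the smallest p of these and lay at 68.0% of its scrambled mean (limma adjusted p = 0.330). None of 15 mitochondrial import and quality control genes was called (0 unadjusted), with Clpb first by p at 0.22.

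The list of muscle clients and chaperone-assisted autophagy genes gave 2 calls among 14, both falling, where 1.32% of all genes tested fell. The median log2 fold change was -0.24, with 9 negative and 5 positive values. The positive ones were Sqstm1, Stub1, Vps18, Wdfy3 and Capn3, at 100.5% to 123.6% of the scrambled mean, without a call. Ttn (titin, the spring of the sarcomere) had 1.01 and 1.01 FPKM with siMEF2A, against 2.56 and 3.40 FPKM with scrambled siRNA (log2 fold change -0.98, limma adjusted p = 5.43e-05). Ldb3 (ZASP, a Z-disc protein) had 2.89 and 3.21 FPKM with siMEF2A, against 5.48 and 6.53 FPKM with scrambled siRNA (log2 fold change -0.79, limma adjusted p = 0.00127). Des (desmin, a client of Cryab) had 155 and 181 FPKM with siMEF2A, against 225 and 248 FPKM with scrambled siRNA. The Des groups did not overlap, at 71.0% of the scrambled mean, without a call (limma adjusted p = 0.304). The calls of Smyd1, Hspb2 and Unc45b thus stood beside lower levels of myogenic and sarcomere genes in the same libraries, and the part of the stage of differentiation in them was not tested.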

How the data were processed

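RNA was measured in 4 libraries, 2 per group, prepared with the TruSeq RNA kit, per the labels' protocols. The authors' deposited values are FPKM per transcript; CASAVA, Trimmomatic, TopHat, Bowtie, Cufflinks and the build mm10 are named in the submitters' processing notes, without their order. No read counts were recovered: low values of at most 17 of 600 genes shared a ratio between libraries, so absolute depth is unknown.

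The FPKM of the transcripts of each symbol were summed, leaving aside 25 small RNA symbols, and a gene was tested if its 4-library mean reached 1 FPKM. Tests were run with limma 3.58.1 in R 4.3.3 (trend, two-sided, no block) on log2(FPKM + 1), which understates the change of low genes, with Benjamini-Hochberg adjustment over all genes tested and calls at an adjusted p under 0.05. The fit was tested on simulated data. The chaperone genes and the lists were chosen with earlier results of these data known. Named genes were all small heat shock and myosin chaperones (untested ones by their values), every called gene and, for each other role, the 2 most abundant genes and those with the largest rise and fall; for each outside list, the called genes or the smallest p. The other genes given with values (among them Hsp90aa1, Stip1, Dnajc10, Hspd1, Hspa9, Hsf1 and Des) were chosen after their values were seen. Gene positions and transcript types came from GENCODE M21 (GRCm38). Of the 88 genes, 29 have an exon that overlaps an exon of another gene, and 36 are listed with 1 transcript. The alternatives were 3 other scalings, another pseudocount, 2 other filters, small RNAs kept, 2 other moderations, a replicate block and leaving out each library.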

Additional observations from a re-analysis of the deposited data

How the results depend on the processing

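With siMEF2A minus scrambled as tested, 48 genes rose and 156 fell over all genes. The count that rose was 13 with median-ratio scaling, 14 with upper-quartile scaling, 11 with quantile normalization, 28 with a pseudocount of 0.1, 29 with no level filter, 23 with small RNAs kept, 24 with no trend, 73 with robust moderation and 41 to 74 with 1 library left out (74 without scrambled replicate 2). The count that fell was 98 at a minimum of 5 FPKM. With the replicate number as a block, 218 rose and 290 fell, and 5 chaperone genes fell, the added ones being Dnajc15 (adjusted p = 0.00537) and Unc45a (adjusted p = 0.0212). No label says that the numbers pair the libraries, and they follow the sample titles: the column headers number the scrambled libraries otherwise, so the block and the correlations rest on that choice. Deviations of same-numbered libraries correlated at 0.292 over all genes and at 0.653 over the chaperone genes. No chaperone gene rose under any of the 14 settings. Of the chaperone genes, 1 fell at a minimum of 5 FPKM, a filter that leaves out Smyd1 and Unc45b and gives the small heat shock and muscle group a median of -0.21, and 1 to 3 fell with 1 library left out (1 without siMEF2A replicate 2). With 1 library left out, a lone library is taken to vary like the other group. The median was then -0.011 to 0.29 for ER, -0.033 to 0.16 for general and 0.015 to 0.11 for mitochondrial chaperones, each highest without scrambled replicate 2. Median-ratio scaling lowered log2 fold changes by 0.055 and turned the mitochondrial median to -0.029, Bag3 to -0.013 and Hspa8 to -0.026, upper-quartile scaling turned that median to -0.016 and Hspa8 to -0.012, and quantile normalization turned Cct4 to 0.043 and Tcp1 to 0.023. Leaving out 1 library also turned the sign of 19 genes, none of them called, whose log2 fold changes then ran as follows: Bag3 -0.14 to 0.21, Bag5 -0.0069 to 0.28, Bag6 -0.15 to 0.064, Cct4 -0.14 to 0.12, Cct8 -0.045 to 0.33, Dnajc1 -0.015 to 0.59, Dnajc16 -0.15 to 0.047, Hsp90ab1 -0.053 to 0.29, Hsp90b1 -0.0058 to 0.57, Hspa12a -0.27 to 0.094, Hspa4 -0.074 to 0.37, Hspa5 -0.042 to 0.41, Hspa8 -0.038 to 0.10, Hspb1 -0.21 to 0.088, Hspb11 -0.25 to 0.088, Hspb6 -0.14 to 0.0605, Hspe1 -0.44 to 0.026, Hspg2 -0.35 to 0.17, Tcp1 -0.045 to 0.016. Of 483 values of the 35 named genes that were tested, 446 kept their direction and side of the threshold, 32 changed sign, 3 lost their call (Hspb2 without siMEF2A replicate 2, and Unc45b without replicate 2 of either group) and 2 gained one (Dnajc15 and Unc45a with the block). Hspb7, not tested otherwise, was called with no level filter. Without read counts, depth gives no interval for single values.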
